A study of Arabidopsis thaliana with 42 samples.

Results

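Cell wall synthesis genes were chosen from the ATH1 array by symbol. A probe set, the group of short array sequences that reports 1 transcript, was kept where the probe annotation gave it exactly 1 gene and where that gene's symbol opened with CESA, CSL, GAUT, GATL, IRX, COBL, AGP, FLA, PME, EXT, PRP or LAC, followed by a digit or a letter from A to G. The rule found 15 of the 13513 probe sets with 1 gene. None of the 15 had an AGP or FLA symbol, so arabinogalactan proteins were not analysed here, and neither were CESA, GATL, COBL and EXT genes. By the CSL symbol 7 members are cellulose synthase-like genes (CSLA01, CSLA03, CSLC04, CSLC5, CSLC6, CSLC12 and CSLD2), and the other wall genes are IRX15, IRX15-L, GAUT15, PME61 and LAC16. The remaining 3 members match by letters alone: PMEAMT is a phosphoethanolamine N-methyltransferase of phospholipid synthesis, and PRP39 and PRP39-2 are named after a splicing factor of yeast. They are counted as members and described apart from the 12 wall genes.

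The plant cell wall is a network of cellulose fibrils in a matrix of hemicelluloses and pectins, to which vascular cells add xylan and lignin. Cellulose itself is made at the plasma membrane, whereas glycosyltransferases of the Golgi build the matrix: CSLC proteins the glucan backbone of xyloglucan, CSLA proteins mannans, the IRX15 pair a step of xylan synthesis and GAUT proteins pectin. In the root, new wall is laid down as cells elongate, as root hairs grow at their tips and as the xylem matures.

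The study asked how roots of natural accessions of Arabidopsis thaliana respond to nitrogen. Wild-type seedlings of 7 accessions (Col0, Kas2, NFA8, SQ8, TAMM27, Ts5 and Var2-1) were grown for 12 days in liquid culture, in which 0.5 mM ammonium succinate was the only nitrogen and sucrose stood at 3 mM. For the last 2 h they received KNO3 or the control salt KCl, each at 5 mM. The ammonium succinate was thus shared by every group, controls included. Each of the 14 groups has 3 biological replicates, each pooled from many seedlings, and 1 array per replicate, 42 in all. Whole roots were taken, in which fewer cells of a type and less RNA per cell cannot be told apart.

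Values are MAS5 signals, a linear measure of brightness per probe set, and a signal of 100 was taken as the lower limit of expression. The array median was 97.8 to 158, and 49.5% to 62.5% of probe sets reached 100 on an array. The tests were run on the 6590 probe sets whose signal averaged 100 or more across the 42 arrays. Of the 15 members 8 were among them, CSLC04, CSLC5, CSLC6, CSLA03, CSLD2, IRX15-L, PMEAMT and PRP39. The other 7, with means of 22.9 to 82.0, were not. All tests are limma's moderated tests on log2(signal + 1), with Benjamini-Hochberg adjustment over the 6590 probe sets, and a call is an adjusted p under 0.1. Folds are those of signal + 1, which understates the change of genes with low signals. Because the array was designed on Col0, the authors discarded elements of a probe set (there are 11 in each) that hybridized out of order in another accession, with a separate list for the KNO3 and the KCl arrays. Those lists took 0 to 6 elements from a member, and in only 16 of 90 pairs of member and accession were the elements the same in both treatments. The 3'/5' ratio, the signal at the 3' end over that at the 5' end of 3 control transcripts, is higher where the copied RNA is shorter. Its mean log2 value was 0.30 to 1.62 on 24 arrays and 2.14 to 3.91 on 18, of which 8 were KNO3 and 10 KCl arrays and 0 were of Col0.

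No tested member passed the threshold for a nitrogen response. Averaged over the 7 accessions, 0 of the 8 tested members passed the threshold in limma, while 0.789% of all tested probe sets did. At an unadjusted p under 0.05 there was 1 of the 8, CSLC6, against 8.5% of all tested probe sets. The median response of the 6 tested wall genes was 0.06 on the log2 scale (KNO3 minus KCl), beside a median of -0.01 over all tested, and 3 of the 6 were positive.

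CSLC6 (AT3G07330), of the family that makes the xyloglucan backbone, had the response nearest to the threshold. Its signal was 81.9 on the lowest, 223.6 on the median and 486.0 on the highest KNO3 array, against 71.9, 169.3 and 315.7 on the KCl arrays (n = 21 each). The ranges overlapped over most of their length. The averaged response was 0.31 ± 0.14 on the log2 scale (SE, 95% interval 0.03 to 0.59, adjusted p = 0.504), with a positive value in 6 of 7 accessions. The positive values of CSLC6 were 0.01 in TAMM27, 0.02 in Kas2, 0.08 in Col0, 0.42 in NFA8, 0.76 in SQ8 and 0.93 in Ts5, each with an SE of 0.37. Its relatives did not share one direction. CSLC04 ran from 73.8 through a median of 318.4 to 578.0 on the KNO3 arrays, against 83.3, 196.4 and 1056.3 on the KCl arrays, and CSLC5 ran from 108.5 through 244.1 to 415.0, against 146.6, 253.5 and 437.0. In each the treatments overlapped: CSLC04 (AT3G28180) had a response of 0.29 (95% interval -0.06 to 0.63, adjusted p = 0.696), and CSLC5 (AT4G31590) had -0.18 (95% interval -0.42 to 0.07, adjusted p = 0.759) with a negative value in 6 of 7 accessions. CSLA03 (AT1G23480), of the mannan synthase family, had 0.13 (95% interval -0.20 to 0.46). For CSLD2 (AT5G16910), a gene of root hair tip growth, the interval was the narrowest of the 8, -0.25 to 0.21 about an estimate of -0.02, so that an averaged change beyond 1.16-fold up or 0.842-fold down lay outside it. IRX15-L (AT5G67210), of xylan synthesis, had -0.14 (95% interval -0.56 to 0.28). Outside the wall, PMEAMT (AT1G48600) had 0.20 (95% interval -0.21 to 0.61) and PRP39 (AT1G04080) had -0.03 (95% interval -0.35 to 0.29).

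**Figure D1:**
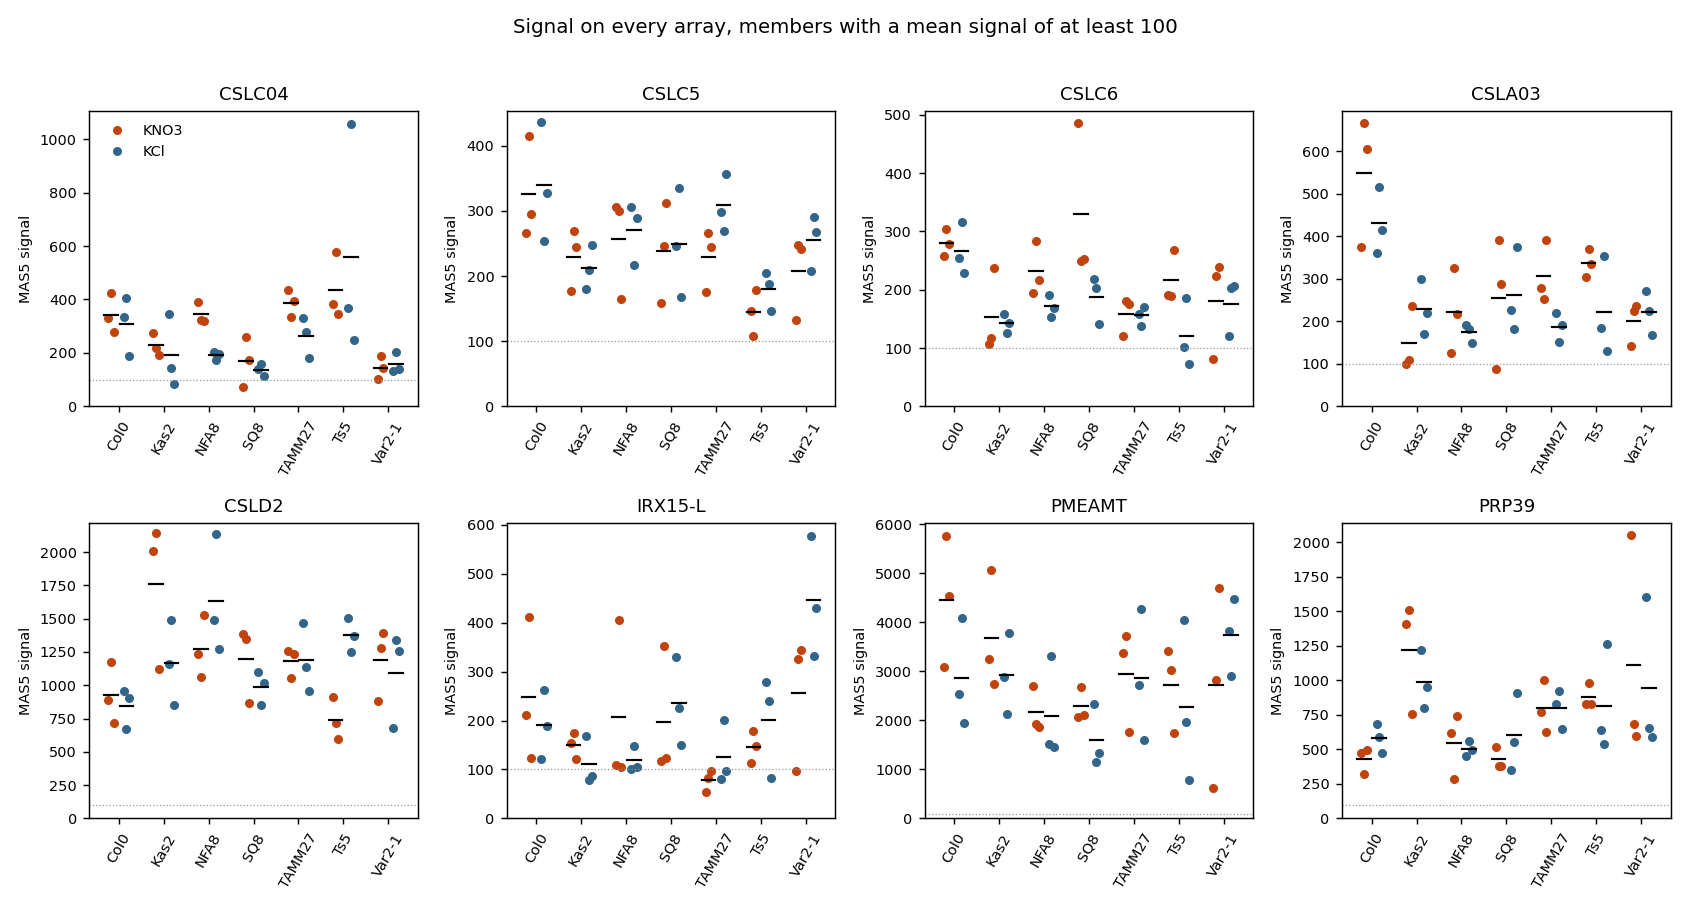
MAS5 signal (linear axis from 0) of the 8 tested members on every array, by accession, with KNO3 arrays in orange left of KCl arrays in blue. Black bars are means of 3 arrays and the dotted line is a signal of 100. Col0 arrays lie at 360.8 to 666.1 for CSLA03, while KNO3 and KCl points overlap in most panels.

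Within single accessions no member passed either. Over the 7 accessions' own responses, 0 of 56 tests of members passed, beside 0.323% of all such tests, and 3 (5.36%) had an unadjusted p under 0.05, against 6.28% of all such tests. The test of whether the response differed between accessions called 0 of 8 members, beside 0.197% of all tested, with 1 at an unadjusted p under 0.05, CSLD2 (adjusted p = 0.760), against 6.19% of all tested. Setting each accession's response against the mean of the other 6 called 0 of 56, beside 0.0889%, with 4 (7.14%) at an unadjusted p under 0.05, against 5.64% of all such tests. By raw signal, the 3 KNO3 and 3 KCl arrays did not overlap in 8 of 56 pairs of member and accession, 6 higher and 2 lower under KNO3. The share over all tested probe sets was 11.2%, with 5.39% higher and 5.81% lower.

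CSLD2 in Ts5 had the smallest p of these own responses. Its signals were 908.2, 718.3 and 597.3 on the KNO3 arrays of Ts5, against 1505.9, 1248.5 and 1369.3 on its KCl arrays. All 3 KNO3 values lay below all KCl values, a difference of -0.91 ± 0.30 on the log2 scale (SE, limma, adjusted p = 0.206). In Kas2, by contrast, the same gene had 2006.0, 2140.4 and 1123.9 under KNO3, against 1158.5, 1493.0 and 855.2 under KCl, a difference of 0.57 ± 0.30 (adjusted p = 0.542). The discarded elements of CSLD2 were not the same in the KNO3 and KCl lists of any of the 6 accessions: in Ts5 they were 4 under KNO3 and 2 under KCl, of which 1 was shared. Their part in these differences was not tested.

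CSLC6 showed its largest differences in Ts5 and SQ8. The Ts5 arrays read 191.4, 189.2 and 268.2 under KNO3, against 102.6, 186.5 and 71.9 under KCl (0.93 ± 0.37, adjusted p = 0.314). In SQ8 they read 486.0, 249.5 and 252.3 under KNO3, against 217.6, 203.0 and 140.8 under KCl (0.76 ± 0.37, adjusted p = 0.439). In both accessions every KNO3 array was above every KCl array, as in NFA8, with 195.0, 284.2 and 217.1 against 191.1, 153.7 and 169.3. With the 3'/5' ratio in the model the Ts5 difference passed the threshold in limma, at 0.97 and an adjusted p of 0.0777. The share of own responses called over all tested probe sets is not given for that fit. CSLC04 also separated in NFA8, with 389.8, 324.3 and 318.4 under KNO3 against 205.0, 173.4 and 196.4 under KCl (0.84 ± 0.45, adjusted p = 1.00), and in TAMM27, with 435.4, 332.7 and 395.4 against 329.2, 277.3 and 181.4. CSLA03 in TAMM27 read 277.4, 251.9 and 392.5 under KNO3, against 219.3, 150.7 and 192.3 under KCl. CSLC5 in TAMM27 ran the other way, with 175.9, 265.7 and 244.1 under KNO3 against 298.7, 269.3 and 356.9 under KCl. In the main fit none of these passed the adjusted threshold. In all of these pairs of gene and accession the discarded elements differed between the KNO3 and KCl lists. For CSLC04 in NFA8 they were 1 and 4, with 0 shared, and in TAMM27 5 and 3, with 2 shared. The part of the discarded elements in these differences was not tested.

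**Figure D2:**
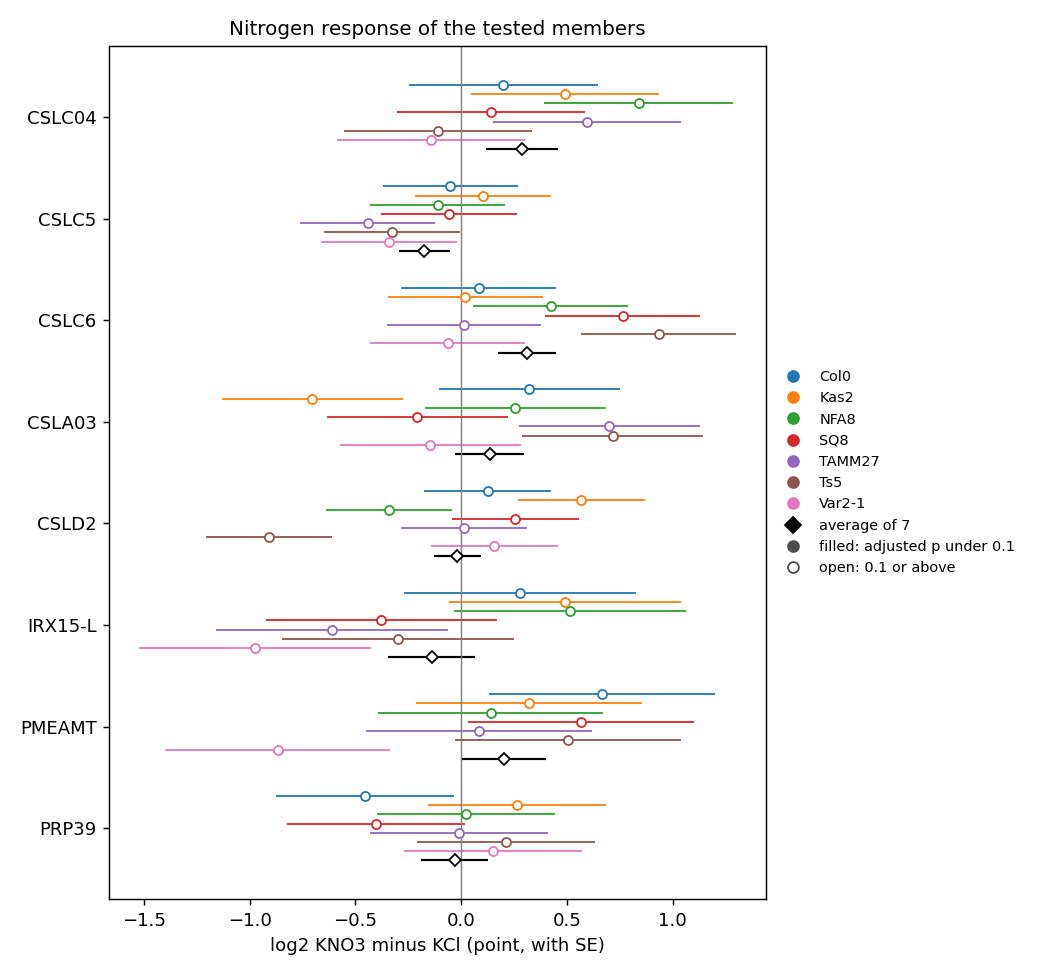
Nitrogen response of the 8 tested members, as log2 signal under KNO3 minus log2 signal under KCl, in each accession (circles) and averaged over the 7 (diamonds), with bars of 1 SE. All points are open, since no response reached an adjusted p under 0.1; CSLD2 lies at -0.91 in Ts5 and 0.57 in Kas2.

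The accessions differed in the level of most of these genes. Differences among the 7 accessions in the mean level over both treatments were called for 7 of the 8 tested members, including all 6 wall genes, where 59.8% of all tested probe sets were called. When the level of 1 accession was set against the mean of the other 6, 13 of 56 tests of members passed, 6 higher and 7 lower, beside 17.1% of all such tests (8.10% higher and 8.96% lower). Of these, 10 fell on wall genes. By accession, the calls were 5 of 8 members in Col0 (26.1% of all tested probe sets), 2 of 8 in SQ8 (17.9%), Ts5 (16.9%) and Var2-1 (10.6%), 1 of 8 in Kas2 (20.8%) and TAMM27 (21.7%), and 0 of 8 in NFA8 (5.36%). In Col0, TAMM27 and Var2-1 the KNO3 and KCl arrays of the same replicate number deviated from their group means together, and with these pairs as a block in the fit 7 of the 13 level calls held and 6 of 8 members were called for accession. The share over all tested probe sets is not given for that fit. Over the 21 pairs of accessions, adjusted over all pairs and probe sets, the number of called pairs was 8 for CSLC04, 6 for CSLA03 and PRP39, 5 for CSLC6 and IRX15-L, 4 for CSLC5, 2 for CSLD2 and 0 for PMEAMT, beside 16.9% over all tested. PMEAMT was the one member not called for accession (adjusted p = 0.249).

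Among the 8 tested members, CSLA03 in Col0 had the level difference of the smallest adjusted p. Its signals there were 374.5, 666.1 and 605.1 under KNO3 and 360.8, 517.0 and 414.1 under KCl. The 36 arrays of the other accessions ran from 88.9 through a median of 222.4 to 392.5, so that only the KCl 360.8 and the KNO3 374.5 arrays of Col0 fell within their range. The level was 2.21-fold that of the mean of the other 6 (1.14 ± 0.23 on the log2 scale, SE, adjusted p = 0.000645), and Col0 differed from each of them singly, with 6 called pairs. No pair without Col0 was called. The call held with any 1 of the 42 arrays left out, at 1.06 to 1.27, and with the block of paired arrays.

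Among the xyloglucan backbone genes, CSLC04 and CSLC5 differed in their order of accessions, whereas CSLC5 and CSLC6 were both highest in Col0. For CSLC04 the geometric mean signal was 441 in Ts5, 315.6 in Col0, 313.5 in TAMM27, 256 in NFA8, 190.2 in Kas2, 148 in Var2-1 and 142 in SQ8, a range of 3.09-fold. Neighbours in that order did not pass the pairwise test, whereas Ts5 differed from SQ8, Var2-1 and Kas2. Ts5 arrays gave 382.1, 578.0 and 346.4 under KNO3 and 368.7, 1056.3 and 246.7 under KCl, against 73.8 to 435.4 with a median of 204.8 on the other 36 arrays. The Ts5 level was 2.04-fold the mean of the others (1.03 ± 0.24, adjusted p = 0.00476). SQ8, at 0.546-fold (-0.87 ± 0.24, adjusted p = 0.0158), and Var2-1, at 0.574-fold (-0.80 ± 0.24, adjusted p = 0.0355), were lower. Without the first SQ8 KNO3 array the SQ8 call was lost (-0.62, adjusted p = 0.114), and without the first Var2-1 KNO3 array (-0.69, adjusted p = 0.113) or the third Var2-1 KCl array (-0.76, adjusted p = 0.110) the Var2-1 call was lost. It was also lost with the block of paired arrays (adjusted p = 0.168), whereas the SQ8 and Ts5 calls held. No element of CSLC04 was discarded in SQ8, under either treatment, while in Var2-1 the lists took 0 under KNO3 and 3 under KCl.

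CSLC5 was lowest where CSLC04 was highest. In Ts5 its arrays read 146.7, 108.5 and 179.1 under KNO3 and 204.8, 188.1 and 146.6 under KCl, against 132.4, 259.6 and 437.0 as the lowest, median and highest of the other 36. That was 0.633-fold the mean of the others (-0.66 ± 0.17, adjusted p = 0.0116), and the call held with each array left out. The lists for CSLC5 in Ts5 removed 5 of 11 elements under KNO3 and 2 under KCl, the most for this gene. In Col0 the level was 1.45-fold the others (0.54 ± 0.17, adjusted p = 0.0274), and in Col0 CSLC6 was likewise 1.56-fold the others (0.64 ± 0.20, adjusted p = 0.0213), with 258.3, 304.3 and 278.0 under KNO3 and 254.9, 315.7 and 228.7 under KCl against a median of 184.0 on the other 36 arrays. Both Col0 differences shrank and lost their call when the model held the 3'/5' ratio, CSLC5 to 0.33 (adjusted p = 0.152) and CSLC6 to 0.37 (adjusted p = 0.130). The Col0 call of CSLC5 was also lost without the first Col0 KCl array (0.44, adjusted p = 0.117) or the second Col0 KNO3 array (0.45, adjusted p = 0.118), and with the block of paired arrays (adjusted p = 0.134).

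**Figure D3:**
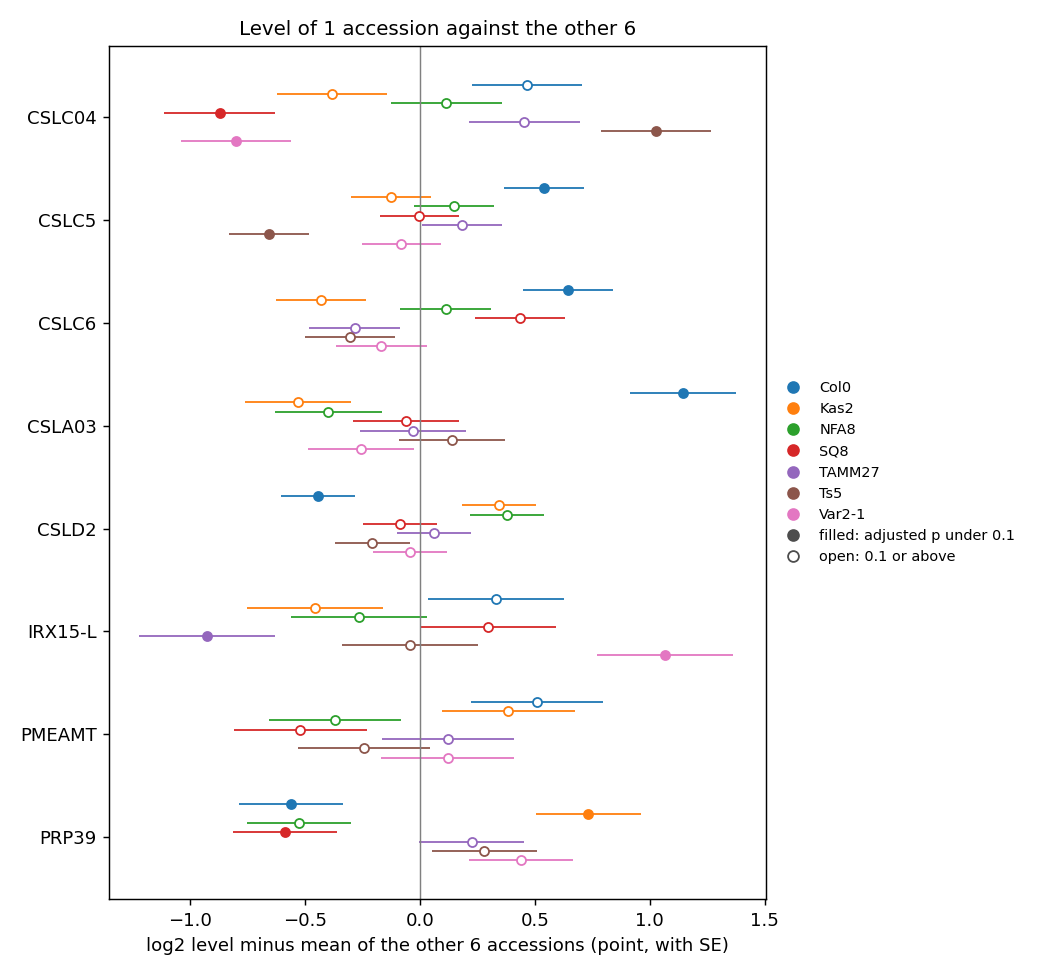
Level of each accession minus the mean of the other 6, on the log2 scale over both treatments, for the 8 tested members, with bars of 1 SE. Filled points have an adjusted p under 0.1; the 2 largest positive values are CSLA03 in Col0 (1.14) and IRX15-L in Var2-1 (1.07).

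CSLD2 was lowest in Col0. Col0 arrays gave 892.4, 1175.9 and 713.6 under KNO3 and 954.0, 668.5 and 906.2 under KCl, within the range of 597.3 to 2140.4 (median 1242.7) on the other 36. The difference, 0.736-fold (-0.44 ± 0.16, adjusted p = 0.0507), was the smallest of the 13 that were called. The call was lost without any 1 of 3 Col0 arrays, as was the accession call in the case of the first and last named here: the second KCl array (-0.36, adjusted p = 0.179), the first KNO3 array (-0.44, adjusted p = 0.102) and the third KNO3 array (-0.36, adjusted p = 0.191). With the 3'/5' ratio in the model it was lost too (-0.39, adjusted p = 0.118), as it was with the block of paired arrays (adjusted p = 0.181), which also ended the accession call (adjusted p = 0.123). Among pairs of accessions, Col0 differed from NFA8 and from Kas2. Of 8 fixed root hair markers the annotation names 2 here, the expansins EXPA7 and EXPA18. Both were called for accession, where 59.8% of all tested probe sets were. Both were lowest in TAMM27, with medians of 34.2 and 42.3, against 115 and 159 on the other 36 arrays. These TAMM27 medians were under the lower limit of expression. EXPA18 was highest in Col0. With the block of paired arrays its level calls in TAMM27 (adjusted p = 0.185) and Col0 (adjusted p = 0.216) were lost. The EXPA7 call in TAMM27 held (adjusted p = 0.0612). The Col0 call of EXPA18 was also lost with the 3'/5' ratio in the model (adjusted p = 0.181). Each EXPA18 call was lost without 1 array, such as the first TAMM27 KNO3 or second Col0 KCl array (adjusted p = 0.193 and 0.157). The part of root hairs, which EXPA7 and EXPA18 mark, in the level of CSLD2 was not tested.

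IRX15-L was higher in Var2-1 and lower in TAMM27 than the mean of the other 6 accessions. Among pairs of accessions, its level in Var2-1 differed from that in TAMM27, Kas2 and NFA8. Its level in TAMM27 differed also from that in Col0 and SQ8, and no other pair was called. In Var2-1 it read 95.9, 325.4 and 344.6 under KNO3 and 577.2, 331.7 and 430.0 under KCl, against 54.2, 135.7 and 411.6 as the lowest, median and highest of the other 36 arrays. The first KNO3 array stood far below the other 5, and 2 of the KCl arrays were above every array of the other accessions. The level was 2.09-fold the mean of the others (1.07 ± 0.30, adjusted p = 0.0207). Without the third Var2-1 KNO3 array it was 0.91 and the call was lost (adjusted p = 0.106). TAMM27 read 54.2, 83.1 and 97.3 under KNO3 and 81.2, 201.1 and 97.1 under KCl, with a median of 160.9 on the other 36 arrays. All of its arrays but the second KCl array were under a signal of 100, so no fold is given. The TAMM27 level was called lower than the mean of the others (-0.93 ± 0.30, adjusted p = 0.0330). That call was lost without the first KCl array of TAMM27 (-0.80, adjusted p = 0.152) or its first KNO3 array (-0.81, adjusted p = 0.149). With the block of paired arrays both calls of IRX15-L were lost, in Var2-1 (adjusted p = 0.164) and in TAMM27 (adjusted p = 0.166), while its accession call held. Of 7 fixed shoot photosynthesis genes the annotation names 1 here, RCA (Rubisco activase), which was highest in TAMM27, with a median of 2502.6 against 418.3 on the other arrays. The highest RCA value of all, 12585.0, was on the first Var2-1 KNO3 array, the one with 95.9 for IRX15-L. Of the fixed markers of xylem (5), endodermis (7), phloem (4) and pollen (4) the annotation names 0, so those cells were not checked here. The part of shoot RNA in the levels of IRX15-L was not tested. For IRX15-L the KNO3 and KCl lists of discarded elements differed in all 6 accessions, and in Var2-1 they took 0 under KNO3 and 4 under KCl.

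PRP39, not a wall gene, was called in 3 accessions, and its estimates changed with the 3'/5' ratio in the model. Its level was 1.66-fold the others in Kas2 (adjusted p = 0.0283), 0.677-fold in Col0 (adjusted p = 0.0798) and 0.666-fold in SQ8 (adjusted p = 0.0881). In Kas2, 5 of 6 arrays were among the 18 with a high ratio. In Var2-1 the 2 arrays numbered 1, with log2 ratios of 3.91 under KNO3 and 3.83 under KCl, gave 2050.5 and 1600.5, while the other 4 arrays, with ratios of 1.33 to 1.53, gave 687.1 and 597.9 under KNO3 and 653.2 and 588.3 under KCl. With the ratio as a covariate all 3 calls were lost, with log2 differences of 0.17 in Kas2 (adjusted p = 0.595), -0.19 in Col0 (adjusted p = 0.482) and -0.31 in SQ8 (adjusted p = 0.203). In Kas2 accession and high ratio nearly coincide, and the part of RNA state in the levels of PRP39 was not tested. Without 1 array at a time the Kas2 call was lost in 2, the Col0 call in 5 and the SQ8 call in 17 of 42 cases. The Col0 call was also lost with the block of paired arrays (adjusted p = 0.190).

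PMEAMT, also outside the wall, had its lowest signal of the 42 arrays, 617.5, on the first Var2-1 KNO3 array. That array had both the highest RCA value and the highest 3'/5' ratio (log2 3.91). The other Var2-1 arrays read 2824.6 and 4691.0 under KNO3, against 3828.4, 2907.9 and 4475.0 under KCl, so the treatments overlapped (-0.87 ± 0.53, adjusted p = 0.999). In Col0 it read 3084.7, 5762.9 and 4534.5 under KNO3, against 2536.0, 4083.6 and 1952.0 under KCl (0.66 ± 0.53, adjusted p = 1.00).

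**Figure D4:**
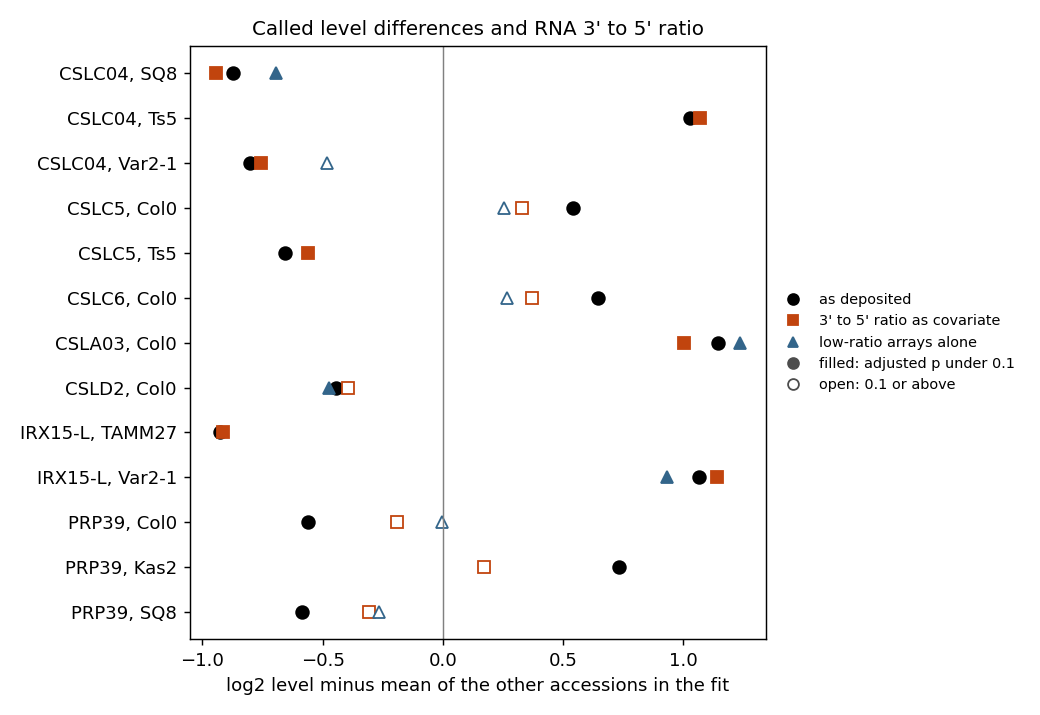
The 13 called level differences as log2 level minus the mean of the other accessions, computed as deposited (circles), with the 3'/5' ratio in the model (squares) and on arrays of low ratio alone (triangles, only for accessions in that fit). Filled symbols have an adjusted p under 0.1; CSLC04, CSLA03 and IRX15-L keep their calls with the covariate, whereas PRP39 moves to 0.17 in Kas2.

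Over all 13 level calls, 7 were kept with the ratio as a covariate: CSLC04 in SQ8, Ts5 and Var2-1, CSLC5 in Ts5, CSLA03 in Col0, and IRX15-L in TAMM27 and Var2-1. On the 19 arrays of low ratio from the 4 accessions with at least 2 of them in both treatments (Col0, NFA8, SQ8 and Var2-1), 9 of the 13 could be tested and 4 were kept, CSLA03 in Col0 (1.24), CSLD2 in Col0 (-0.47), CSLC04 in SQ8 (-0.69) and IRX15-L in Var2-1 (0.93). In that fit 4 calls were gained, CSLC04 in Col0 (0.75, adjusted p = 0.0336) and PMEAMT in Col0 (0.55), Var2-1 (0.65) and NFA8 (-0.65), and the accession test called PMEAMT (adjusted p = 0.0119) but no longer CSLC5, CSLC6, IRX15-L and PRP39 (adjusted p of 0.450, 0.316, 0.162 and 0.231). It leaves out Ts5, lowest for CSLC5, TAMM27, lowest for IRX15-L, and Kas2, lowest for CSLC6 and highest for PRP39. Each level there is set against fewer accessions, so a change of accessions and a change of ratio cannot be told apart. On all 42 arrays, the accession test called 5 of 8 members with the covariate, CSLC6 (adjusted p = 0.202) and PRP39 (adjusted p = 0.246) being lost. Shares over all tested probe sets are not given for these fits, so the losses and gains are not read as particular to the members. Col0 has no list of discarded elements, so for Col0 accession and array design cannot be told apart. It also has no array of high ratio, so without the ratio in the model its accession and RNA state are partly mixed on all 42 arrays.

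Under a mean signal of 100 stayed CSLC12, CSLA01, IRX15, GAUT15, PME61, LAC16 and PRP39-2. Values near or under 100 hold a large share of background, so their fits come from the 13367 probe sets of 1 nuclear gene with no limit on signal, and no size is given for a level difference between accessions. In that fit 0 of the 7 were called for the averaged response in limma (0.232% of all probe sets were) and 0 for the interaction (0.0823%, with 0 of the 7 at an unadjusted p under 0.05), 1 of 7 was called for accession, LAC16 (45.1%), and 4 of 49 tests of 1 accession's level passed (11.7%).

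GAUT15 (AT3G58790), a member of the galacturonosyltransferase family that makes pectin, had the smallest p of the 7 for the averaged response, and was not called. It had 42.5 on the lowest, 98.3 on the median and 233.4 on the highest KNO3 array, against 14.3, 65.1 and 135.7 on the KCl arrays. The response was 0.55 ± 0.22 on the log2 scale (SE, 95% interval 0.10 to 1.00, adjusted p = 0.590) and positive in 6 of 7 accessions. In SQ8 it read 233.4, 120.3 and 177.5 under KNO3, against 47.1, 75.3 and 93.2 under KCl (1.29 ± 0.59, adjusted p = 0.387).

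LAC16 (AT5G58910), of the laccase family that polymerizes lignin, was the only one of the 7 called for accession (adjusted p = 0.0119). SQ8 arrays read 400.3, 64.0 and 94.0 under KNO3 and 11.8, 122.0 and 15.3 under KCl, against 1.4, 14.0 and 151.4 as the lowest, median and highest of the other 36. The 3 KNO3 arrays were above that median, while 2 of the KCl arrays were near it. The SQ8 level was called higher than the mean of the others (adjusted p = 0.0153), with 2 of its 6 arrays over 100, and was still called with each array left out (adjusted p = 0.0870 without the first SQ8 KNO3 array). That array gave the highest of the 42 signals for 6 of the 15 members, CSLA01 (147.0), CSLC12 (340.9), CSLC6, GAUT15, IRX15 (218.4) and LAC16, and the lowest for 2. Its median signal was 154.9, and 61.2% of its probe sets reached 100.

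IRX15 (AT3G50220), the partner of IRX15-L in xylan synthesis, read 46.2, 16.6 and 49 under KNO3 and 41.5, 44.2 and 24.5 under KCl in Col0, with a median of 10.3 on the other 36 arrays. All 6 Col0 values were thus under 100. The Col0 level was called higher (adjusted p = 0.0863), and the call was lost in 12 of 42 cases of leaving out 1 array. The levels of GAUT15 (adjusted p = 0.0908) and CSLA01 (adjusted p = 0.0983) in Ts5 were called lower than the others, and these calls were lost in 18 and 29 of 42 such cases. CSLC12, the pectin methylesterase PME61 and PRP39-2 had no call of any kind.

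**Figure D5:**
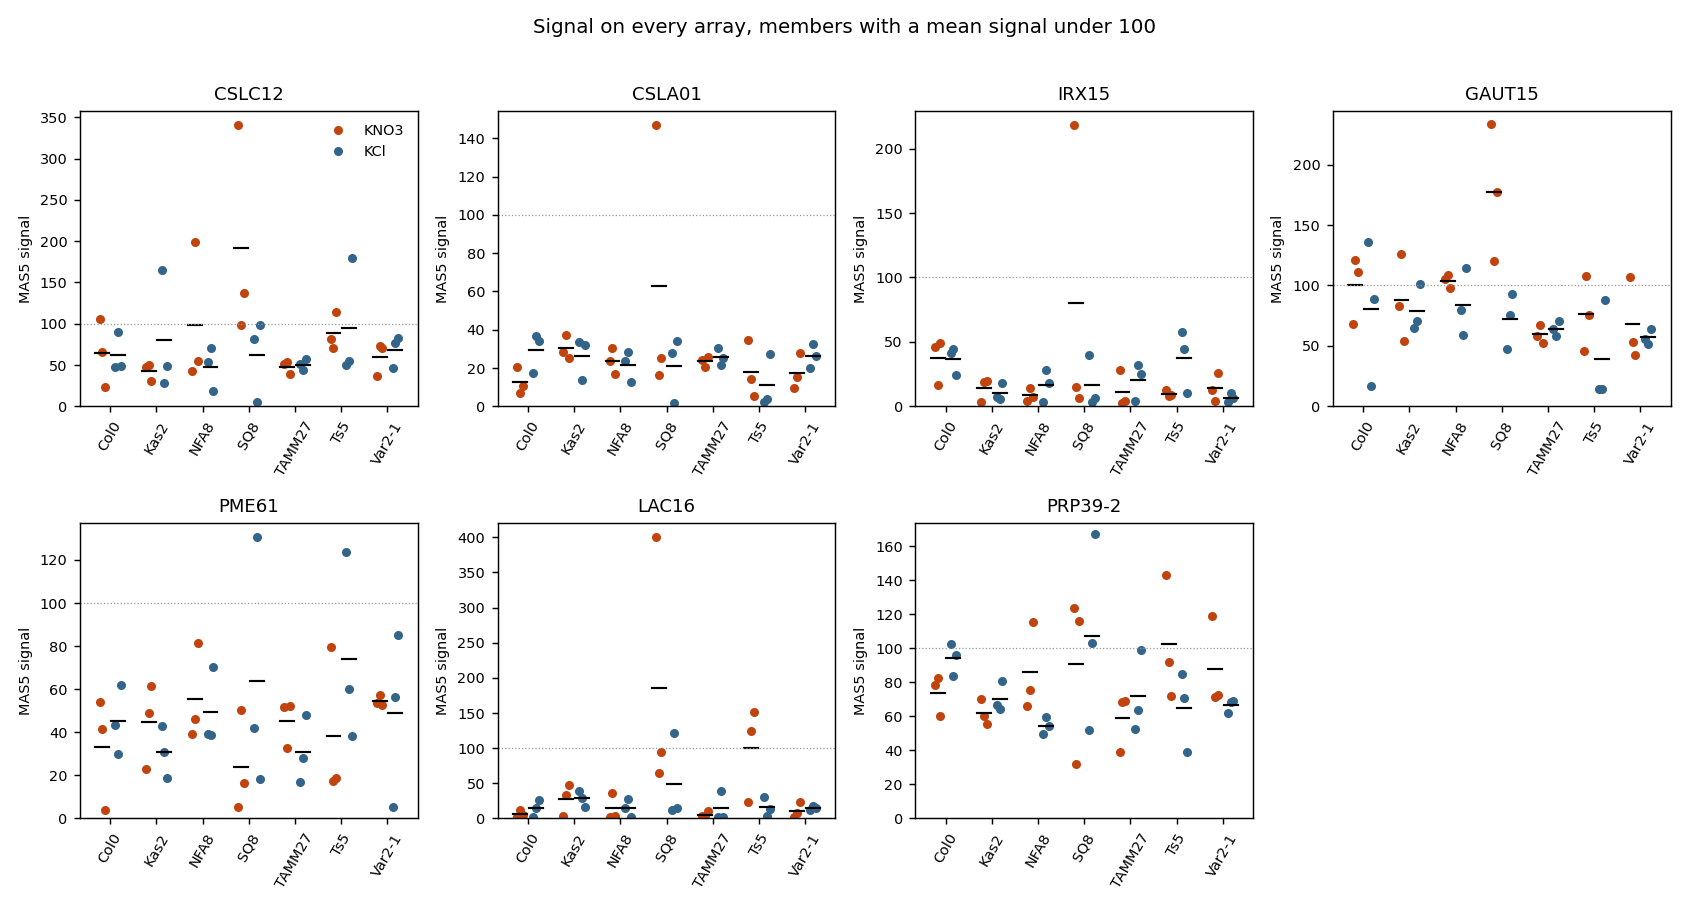
MAS5 signal (linear axis from 0) of the 7 members with a mean signal under 100, on every array by accession, with KNO3 arrays in orange left of KCl arrays in blue. Bars are means of 3 arrays and the dotted line is a signal of 100; a single KNO3 array of SQ8 stands highest for CSLC12, CSLA01, IRX15, GAUT15 and LAC16.

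Of 93 further wall genes listed for cellulose machinery, xyloglucan and pectin synthesis, nucleotide sugars, lignin, secondary wall regulators and arabinogalactan glycosylation, the annotation names 5 here, and all 5 were tested. For the averaged response 0 of the 5 were called, beside 0.789% of all tested, with a median of 0.01 on the log2 scale. HCT, a hydroxycinnamoyl transferase of the lignin pathway, came nearest. It was the 1 of 5 with an unadjusted p under 0.05, against 8.5% of all tested probe sets. Its signal was 804.4 on the lowest, 1460.2 on the median and 2125.9 on the highest KNO3 array, against 1059.9, 1843.6 and 2860.9 on the KCl arrays (-0.35 ± 0.11, adjusted p = 0.203). For accession 4 of the 5 were called, all but XEG113, an arabinosyltransferase of wall extensins, where 59.8% of all tested probe sets were. Of their 35 tests of 1 accession's level 8 passed, 4 higher and 4 lower, beside 17.1% of all such tests. COB, a membrane-anchored protein that orients cellulose, was 2.24-fold the others in Col0 (adjusted p = 0.000293), where its lowest, median and highest arrays were 1439.3, 1759.7 and 1950.3, against 244.9, 747.4 and 1631.3 on the others. In TAMM27 it was 0.597-fold the others (adjusted p = 0.0219), and HCT was 0.739-fold (adjusted p = 0.0550). The COB call in TAMM27 was lost without the first TAMM27 KNO3 array (0.681-fold, adjusted p = 0.166), and that of HCT without any 1 of 3 TAMM27 arrays, the first KCl (adjusted p = 0.251), first KNO3 (adjusted p = 0.218) and second KNO3 array (adjusted p = 0.130), or with the block of paired arrays (adjusted p = 0.192). CCOAMT, of the caffeoyl-CoA methyltransferase family, read 130.4, 71.5 and 58.0 under KNO3 and 32.9, 84.6 and 24.4 under KCl in Col0, so that 5 of 6 arrays were under 100 and no fold is given for this lower level (adjusted p = 2.33e-05). It was 2.53-fold the others in Ts5 (adjusted p = 0.0258). In Var2-1 it read 312.3, 1781.5 and 2068.2 under KNO3 and 101.8, 1596.9 and 2108.3 under KCl, the low array of each treatment being the one with the high 3'/5' ratio. The Var2-1 level was 3.86-fold the others (adjusted p = 0.00131), and 6.24-fold without the first KCl array. CCR2, a cinnamoyl-CoA reductase, read 56.2, 91.7 and 109.8 under KNO3 and 45.6, 218.3 and 54.4 under KCl in TAMM27, where it was called lower than the others (adjusted p = 0.00201) with 4 of 6 arrays under 100. In Kas2 it was 2.25-fold the others (adjusted p = 0.0366), a call lost without the second KCl array (adjusted p = 0.159), the first KNO3 array (adjusted p = 0.134) or the second KNO3 array of Kas2 (adjusted p = 0.102).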

How the data were processed

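RNA of whole roots was hybridized to 42 Affymetrix ATH1 arrays. The deposited values are intensities: the authors discarded elements out of order against Col0 and summarized the rest as MAS5 signals in the GCOS software (version not given in the sources used here). Per the labels and methods no replicates were pooled. Signals were used as deposited. The MAS5 values in the paper's supplement pair probe set names with other values than the deposit does, and the names of the deposit were used. Replicates of a group correlated at 0.526 to 0.969 on the log2 scale over the tested probe sets, lowest in Var2-1 under KNO3. The probe annotation lists 14016 of the 22810 probe sets, 503 of them with several genes, and symbols were checked against RefSeq (TAIR10.1). The members, lists and tests were chosen with earlier results of these data known.

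With limma 3.58.1 in R 4.3.3, log2(signal + 1) of the 6590 probe sets of 1 nuclear gene with a mean signal of at least 100 was fitted to 14 group means with a variance trend, and p-values were adjusted by Benjamini-Hochberg at 0.1. Contrasts were the averaged response, accession, interaction, and each accession against the mean of the other 6. All 8 tested members are named, as are called members under the cutoff and fixed list genes. The procedure was tested on simulated data. Alternatives covered normalization, pseudocount, cutoff, variance model, replicate number, RNA ratio, threshold and each array left out; the low-ratio arrays, both Var2-1 arrays numbered 1 and blocks within accessions (duplicateCorrelation) were chosen after seeing the data. Same-numbered KNO3 and KCl arrays were taken as paired in Col0, TAMM27 and Var2-1, where all 3 correlations of their deviations were over 0.1 (0.185 to 0.692); the labels give only the number. The number of arrays limits the precision.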

Additional observations from a re-analysis of the deposited data

How the results depend on the processing

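The 6 counts of member calls were recomputed under 15 other settings and with each of the 42 arrays left out. The averaged response, the interaction and the responses against the other accessions stayed at 0 calls under all of them. Own responses stayed at 0 except with the 3'/5' ratio in the model, which gave 1 (CSLC6 in Ts5). Members called for accession numbered 7, with 6 to 8 when an array was left out, 5 with that ratio in the model and 4 on low-ratio arrays alone, a fit of fewer arrays and accessions. Level calls numbered 13, with 10 to 16 when an array was left out, 7 with that ratio in the model and 8 on low-ratio arrays alone (4 kept and 4 gained). The cause of these losses was not tested. Shares over all tested probe sets are not given for these settings, so the losses and gains are not read as particular to the members. Quantile normalization kept 11 of the 13 and scaling to one median kept 12 and gained 2 (CSLD2 in Kas2, 0.47, and PMEAMT in SQ8, -0.71). The deviations of same-numbered KNO3 and KCl arrays correlated over 0.1 in 11 of 21 pairs (-0.22 to 0.69), among them all 3 pairs in each of Col0, TAMM27 and Var2-1. With the replicate block over all arrays the counts were 0, 7, 0, 0, 0 and 13 and all 13 level calls were kept. With a replicate block within each of the 7 accessions (correlation 0.139) 11 level calls were kept and the other counts held. With that block only in Col0, TAMM27 and Var2-1 (correlation 0.524) 7 level calls were kept, members called for accession numbered 6, and no response was called. Of 456 averaged responses of members under these alternatives, all 456 stayed above the threshold and 21 had another sign, 11 for CSLD2, 9 for PRP39 and 1 for IRX15-L, all near 0.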

Other observations

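The annotation also holds 5 relatives of these families under other symbols, picked out after it had been seen: ATCSLC08, of the CSLC family, and the pectin methylesterase genes AT4G02300, ATPMEPCRB, ATPMEPCRD and PMEPCRF. For the averaged response 0 of the 3 with a mean signal of at least 100 were called by limma, beside 0.789% of all tested. ATPMEPCRD ran from 42.4 to 281.3 on the KNO3 arrays, against 18.1 to 390.1 on the KCl arrays (0.52 ± 0.25 on the log2 scale, SE, unadjusted p = 0.0469, adjusted p = 0.580). For accession all 3 were called, where 59.8% of all tested probe sets were. ATPMEPCRD was called lower than the others in Col0 (adjusted p = 0.0139), where its arrays lay between 18.1 and 100, and it was 1.93-fold the others in TAMM27 (adjusted p = 0.0755), a call lost without any 1 of 5 TAMM27 arrays (adjusted p of 0.107 to 0.228) and with the block of paired arrays (adjusted p = 0.247). ATPMEPCRB was called lower in Var2-1 (adjusted p = 0.0285), where its arrays lay between 39.8 and 106.9, and this call was lost with the block (adjusted p = 0.131). PMEPCRF (adjusted p = 0.0308 over all accessions) had no single accession called against the rest. ATCSLC08, under the signal cutoff, had an averaged response of -0.07 ± 0.18.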
